A study of Mus musculus with 12 samples.

Results

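Lgr5 and other genes of the Wnt pathway were followed in mouse fibroblasts on the way to induced pluripotency. The names Lgr5, Axin2, Sfrp1, Sfrp2, Dkk2, Dkk3, Wnt5a, Tcf7, Lef1 and Nkd2, 10 in all, were picked with earlier results of these data known. The probe set of a gene was chosen by its mean level across the 12 arrays, the highest being kept. That mean decided between 2 probe sets for Lgr5 (8.78 kept, 5.95 not), Sfrp2 (8.95 and 5.07) and Axin2 (5.56 and 5.06). Measured were 9 of the 10, out of 22180 genes, and all 9 passed a filter at the 25th percentile of mean levels. Tcf7 is not analysed here.

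The cells were embryonic fibroblasts of wild-type (WT) or Gdap1-null (KO) mice, Gdap1 being the gene of a mitochondrial outer-membrane protein. They were labelled as taken before reprogramming (day 0) or at day 4 of it, with OSKM (Oct4, Sox2, Klf4 and Myc) as the transduced factors. Each of the 4 groups had 3 arrays: WT day 0, WT day 4, KO day 0 and KO day 4. The protocol speaks of a mock or an OSKM transduction and does not say which was used for day 0 cells, nor do the labels describe the null allele. Whether arrays of 1 group stem from different embryos or cultures is not labelled, so the p-values measure only the spread between these samples, which may be technical.

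Wnt proteins are secreted, lipid-modified signals that bind Frizzled receptors together with LRP or ROR co-receptors. In the canonical branch they free beta-catenin from a destruction complex built on Axin and APC, and beta-catenin then acts with TCF and LEF factors on target genes. R-spondins, through Lgr4, Lgr5 and Lgr6, keep Frizzled receptors at the cell surface, while secreted antagonists of the SFRP and Dickkopf families limit the signal.

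Sequence upstream of the transcription start was matched in RefSeq (GRCm38.p6) for 5 of the 9 genes: Axin2, Sfrp2, Dkk2, Lef1 and Nkd2. The 250 bases before the first listed start are shown, 5′ to 3′ on the strand of the gene. They belong to Sfrp2, Dkk2 and Lef1, which rose by day 4 in KO cells, and to Nkd2, which fell. Capitals mark every CG pair.
Sfrp2, chr3:83766071-83766320, plus strand: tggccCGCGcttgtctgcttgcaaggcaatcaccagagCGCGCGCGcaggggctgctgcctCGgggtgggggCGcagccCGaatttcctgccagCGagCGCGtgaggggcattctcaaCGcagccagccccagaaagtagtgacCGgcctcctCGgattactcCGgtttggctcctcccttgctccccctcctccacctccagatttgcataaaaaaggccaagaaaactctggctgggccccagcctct
Dkk2, chr3:132085042-132085291, plus strand: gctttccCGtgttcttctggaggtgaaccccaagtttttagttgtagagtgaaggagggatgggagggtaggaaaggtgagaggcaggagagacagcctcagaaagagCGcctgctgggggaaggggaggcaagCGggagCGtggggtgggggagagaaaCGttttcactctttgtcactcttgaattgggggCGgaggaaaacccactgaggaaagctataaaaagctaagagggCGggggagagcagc
Lef1, chr3:131110047-131110296, plus strand: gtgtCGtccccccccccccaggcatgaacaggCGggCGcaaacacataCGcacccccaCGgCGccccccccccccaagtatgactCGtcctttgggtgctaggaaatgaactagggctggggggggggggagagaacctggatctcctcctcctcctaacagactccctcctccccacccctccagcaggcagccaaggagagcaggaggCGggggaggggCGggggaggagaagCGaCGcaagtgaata
Nkd2, chr13:73847632-73847881, minus strand: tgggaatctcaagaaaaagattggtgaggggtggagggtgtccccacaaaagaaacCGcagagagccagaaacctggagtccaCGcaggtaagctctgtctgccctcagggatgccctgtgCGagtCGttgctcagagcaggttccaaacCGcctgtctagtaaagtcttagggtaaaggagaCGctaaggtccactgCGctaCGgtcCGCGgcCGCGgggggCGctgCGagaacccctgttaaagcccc
The stretch held 16 CG pairs for Sfrp2, 14 for Nkd2, 11 for Lef1 and 7 for Dkk2, against a median of 6 over 32851 such stretches. Axin2, whose stretch is not printed, held 24, so all 5 lay above that median. The TCF and LEF motifs CTTTGAA and CTTTGAT, searched on both strands, occurred in 7.48% of all the stretches and in none of these 5. That says only that these letters are not in these windows.

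All values are log2 levels from the deposited table, so a difference of 1 is a 2-fold difference. A gene passed, or is said to have risen, fallen or been higher or lower, where limma's moderated test gave an adjusted p (Benjamini-Hochberg, across the whole table) under 0.05, and errors of differences are standard errors (SE) of that fit. The 12 array medians ranged from 5.22 to 5.32, and with no batch named in the labels, a batch and a group cannot be told apart. All 10 fibroblast markers lay above the 25th percentile, with array means from 10.69 to 11.08. Single markers moved within these means. By day 4, 2 rose and 5 fell in WT cells (70% called, 22.9% of all genes), and 1 and 4 in KO cells (50%, 30.8%). In KO against WT cells 3 were higher at day 0 (30%, 5.6% of all genes), and 2 were higher and 2 lower at day 4 (40%, 20.7%). Of 7 macrophage and blood markers, 6 were lower in KO cells at day 0, where 3.12% of all genes were lower. At day 4 again 6 were lower, where 12.4% of all genes were, and none of the 7 markers lay under the 25th percentile. Their array means were 6.49 to 6.55 in WT day 0, 6.29 to 7.29 in WT day 4, 5.24 to 5.34 in KO day 0 and 5.32 to 5.37 in KO day 4. Epithelial markers (7 measured, Epcam under the 25th percentile) averaged 5.33 to 5.35, 5.75 to 6.0, 5.04 to 5.17 and 5.29 to 5.57 in the same order. The part of either set in the results was not tested. In bulk RNA, fewer cells of a type and less RNA per cell cannot be told apart. The Gdap1 probe set lay between 2.82 and 3.30 over the 12 arrays, all under the 25th percentile (3.75) in WT cells as in KO cells. It passed at neither day between genotypes (-0.08, adjusted p = 0.831, and 0.16, adjusted p = 0.395) and so does not check the genotype labels. Of the transduced factors, Klf4 rose by day 4 (2.94, adjusted p = 9.02e-10 in WT, and 3.28, adjusted p = 2.92e-10 in KO cells) and Myc fell (-1.02, adjusted p = 3.06e-06, and -0.94, adjusted p = 4.92e-06). Pou5f1 (Oct4) rose in KO cells (0.38, adjusted p = 0.00541), with a WT change that missed the threshold (0.10, adjusted p = 0.516), and Sox2 passed in neither (0.19, adjusted p = 0.338, and -0.10, adjusted p = 0.599).

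Lgr5 encodes a receptor for R-spondins and marks stem cells of several epithelia. In WT cells its level was 9.62, 9.53 and 9.58 at day 0 and 8.08, 9.68 and 8.90 at day 4. In KO cells it was 7.65, 7.31 and 7.63 at day 0 and 8.78, 9.62 and 9.03 at day 4. The KO day 0 arrays stood below every other array, and the day 4 arrays of the genotypes overlapped. At day 0 KO cells had 4.14-fold less Lgr5 than WT cells, a difference of -2.05 ± 0.31 (SE, n = 3 per group, adjusted p = 0.00155). By day 4 it had risen 3.06-fold in KO cells (1.62 ± 0.31, adjusted p = 0.00145), and KO minus WT was then 0.26 (95% interval -0.41 to 0.93, adjusted p = 0.61). In WT cells the day 4 change was -0.69 ± 0.31 (adjusted p = 0.14). The genotypes differed in their day 4 change by 2.31 ± 0.44 (adjusted p = 0.0135).

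From high to low, the Lgr5 group means were 9.58 ± 0.04 in WT day 0, 9.14 ± 0.43 in KO day 4, 8.89 ± 0.80 in WT day 4 and 7.53 ± 0.19 in KO day 0 (SD, n = 3). Arrays of the upper 3 groups overlapped. KO day 4 and WT day 4 did not pass against each other, and KO day 4 was not tested against WT day 0. The WT day 4 arrays spread most: without array 2 the fall in WT cells passed (-1.09, adjusted p = 0.00761), and without array 1 it was smaller (-0.29, adjusted p = 0.464). The second Lgr5 probe set gave 6.31, 6.49 and 6.66 in WT and 5.06, 5.12 and 5.38 in KO cells at day 0, again without overlap. It passed for that difference (-1.30, adjusted p = 0.0129) and for the rise in KO cells (0.94, adjusted p = 0.0188), but not for the difference of changes (1.42, adjusted p = 0.0609).

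**Figure D1:**
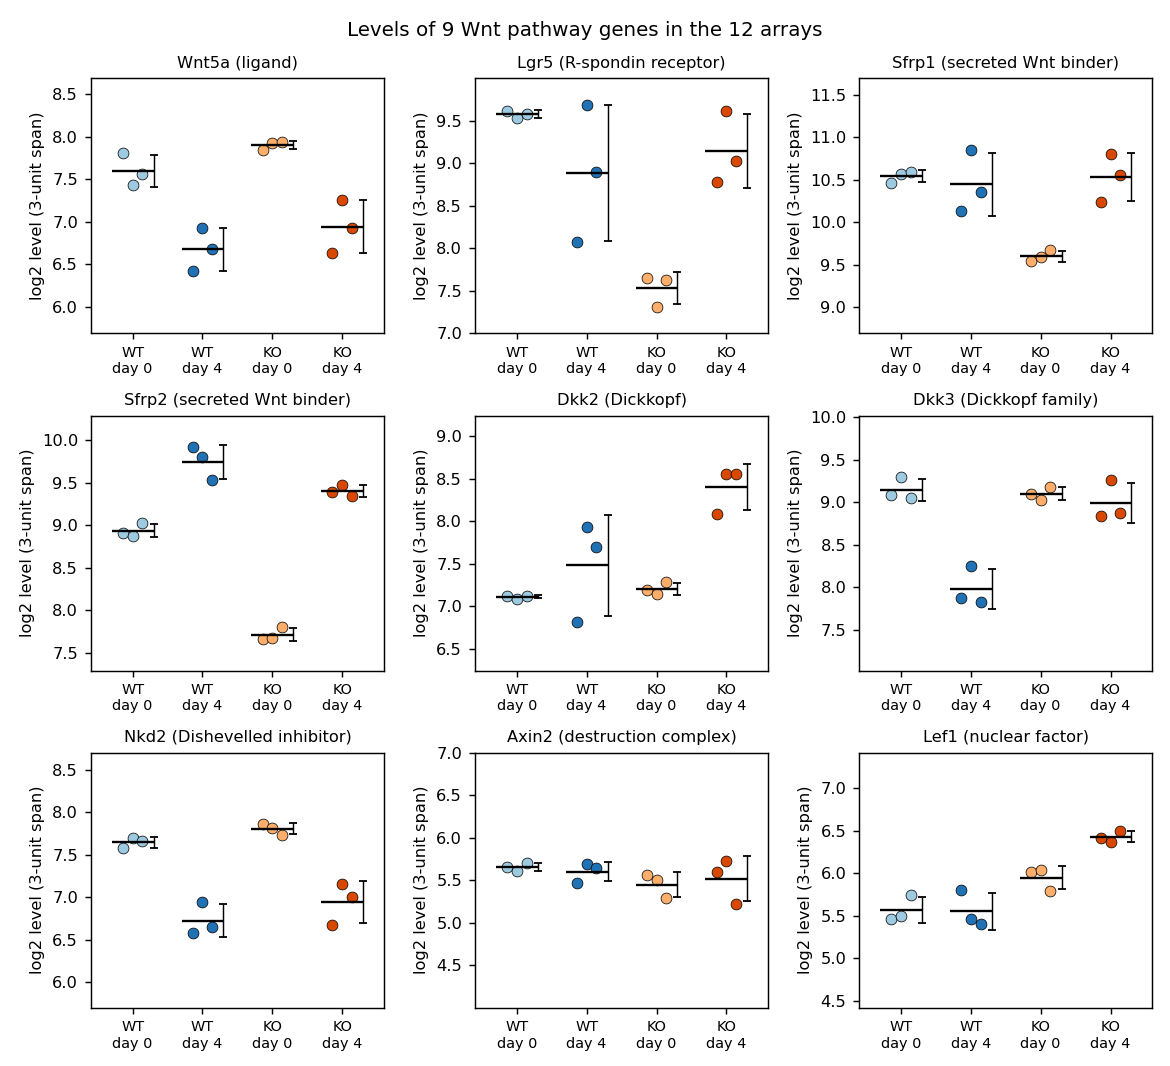
Log2 levels (vertical axis) of the 9 genes in the 3 arrays of each of 4 groups (horizontal axis), with group means and SD. Lgr5, Sfrp1 and Sfrp2 are lowest in the KO day 0 arrays, Dkk3 is lowest in the WT day 4 arrays, and Wnt5a and Nkd2 are lower at day 4 in both genotypes.

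Sfrp1 and Sfrp2 encode secreted frizzled-related proteins, which bind Wnt ligands outside the cell. Both were lower in KO than in WT cells at day 0, and both rose in KO cells by day 4. Sfrp1 had levels of 10.46, 10.57 and 10.59 at day 0 and 10.13, 10.85 and 10.36 at day 4 in WT cells. In KO cells the levels were 9.54, 9.59 and 9.67 and then 10.24, 10.80 and 10.56. As with Lgr5, the KO day 0 arrays alone lay apart from the rest. The Sfrp1 difference at day 0 was -0.94 ± 0.17 (SE, n = 3 per group, adjusted p = 0.00436), and the KO rise was 0.93 ± 0.17 (adjusted p = 0.000887). The change in WT cells was -0.09 (95% interval -0.45 to 0.27, adjusted p = 0.771), and KO minus WT at day 4 was 0.08 (95% interval -0.28 to 0.44, adjusted p = 0.779). Its difference of changes was 1.02 ± 0.23 (adjusted p = 0.0311). Omitting 1 array ended that call for 9 of the 12 arrays (0.0522 to 0.0784 as adjusted p), namely each of the 6 day 0 arrays, array 3 of WT day 4, and arrays 2 and 3 of KO day 4, with sizes of 0.86 to 1.22 over all 12.

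Sfrp2 had levels of 8.91, 8.88 and 9.03 in WT cells at day 0 and 9.92, 9.80 and 9.53 at day 4. The KO levels were 7.66, 7.68 and 7.81 at day 0 and 9.39, 9.48 and 9.35 at day 4. No group overlapped another. KO cells were 2.33-fold lower at day 0 (-1.22 ± 0.10, adjusted p = 1.59e-05). By day 4 Sfrp2 rose 1.75-fold in WT cells (0.81 ± 0.10, adjusted p = 6.71e-05) and 3.22-fold in KO cells (1.69 ± 0.10, adjusted p = 2.02e-07), and these changes differed by 0.88 ± 0.14 (adjusted p = 0.00567). A smaller gap was left at day 4, -0.34 ± 0.10 (adjusted p = 0.028). In a fit of the day 4 groups alone it did not pass. That gap did not pass without WT day 4 array 1 (-0.26, adjusted p = 0.0731) or 2 (-0.31, adjusted p = 0.0873), or without KO day 4 array 1 (-0.33, adjusted p = 0.0709) or 3 (-0.31, adjusted p = 0.0838).

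The second Sfrp2 probe set, between 4.70 and 5.64 over the arrays, passed in no comparison. KO minus WT at day 0 (-0.08, adjusted p = 0.874) and the day 4 changes in WT (0.34, adjusted p = 0.148) and KO cells (0.23, adjusted p = 0.303) were closer to 0 than those of the first probe set. The Sfrp2 calls thus rest on 1 of its 2 probe sets.

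Dkk2 and Dkk3 belong to the Dickkopf family, in which Dkk2 binds LRP co-receptors and Dkk3 is a divergent member. Both were higher in KO than in WT cells at day 4. Dkk2 levels in WT cells were 7.12, 7.09 and 7.12 at day 0 and 6.81, 7.93 and 7.70 at day 4. In KO cells they were 7.19, 7.14 and 7.28 and then 8.09, 8.56 and 8.56, the last being above all other arrays. Dkk2 rose 2.30-fold in KO cells (1.20 ± 0.22, adjusted p = 0.00111), and at day 4 KO exceeded WT by 0.92 ± 0.22 (SE, n = 3 per group, adjusted p = 0.011). The WT change was 0.37 ± 0.22 (adjusted p = 0.287) and the difference of changes 0.83 ± 0.31 (adjusted p = 0.162). Leaving out WT day 4 array 1, the lowest of its group, let the WT rise pass (0.71, adjusted p = 0.00188) and brought KO minus WT at day 4 to a smaller size (0.59, adjusted p = 0.00559). In a fit of the day 4 groups alone that difference did not pass (adjusted p = 0.0775).

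Dkk3 levels were 9.08, 9.29 and 9.05 in WT cells at day 0 and 7.87, 8.25 and 7.82 at day 4. They were 9.10, 9.02 and 9.18 in KO cells at day 0 and 8.84, 9.26 and 8.87 at day 4. Here the WT day 4 arrays stood below all the others. Dkk3 fell 2.24-fold in WT cells (-1.16 ± 0.13, adjusted p = 4.48e-05), while the change in KO cells was -0.11 (95% interval -0.40 to 0.18, adjusted p = 0.599). The changes differed by 1.05 ± 0.19 (adjusted p = 0.0105), and KO exceeded WT at day 4 by 1.01 ± 0.13 (adjusted p = 0.000359).

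Wnt5a, a ligand that signals largely without beta-catenin and through ROR receptors, fell by day 4 in both genotypes. Its level in WT cells was 7.81, 7.44 and 7.56 at day 0 and 6.42, 6.93 and 6.68 at day 4. In KO cells it was 7.85, 7.93 and 7.94 and then 6.64, 7.26 and 6.93. Within each genotype no day 4 array reached a day 0 array. WT cells changed by -0.93 ± 0.16 (SE, n = 3 per group, adjusted p = 0.000889), and KO cells by -0.96 ± 0.16 (adjusted p = 0.000507). The difference of these changes was -0.03 (95% interval -0.52 to 0.46, adjusted p = 0.962). KO minus WT passed on neither day (0.30, adjusted p = 0.389, and 0.27, adjusted p = 0.27), although the day 0 arrays did not overlap.

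Nkd2 encodes a protein that binds Dishevelled and dampens the signal inside the cell. Its level in WT cells was 7.58, 7.70 and 7.67 at day 0 and 6.58, 6.95 and 6.65 at day 4. In KO cells it was 7.87, 7.82 and 7.74 and then 6.68, 7.16 and 7.01. Every day 4 array was below every day 0 array. Nkd2 fell by day 4 in WT cells (-0.92 ± 0.12, adjusted p = 0.000137) and in KO cells (-0.86 ± 0.12, adjusted p = 0.000176), and these changes differed by 0.06 (95% interval -0.31 to 0.44, adjusted p = 0.897).

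Axin2 encodes a scaffold of the destruction complex and is a widely used target gene of beta-catenin. Its level in WT cells was 5.66, 5.61 and 5.70 at day 0 and 5.47, 5.69 and 5.65 at day 4. In KO cells it was 5.56, 5.50 and 5.29 and then 5.60, 5.73 and 5.22. No Axin2 comparison passed. The day 4 change was -0.05 (95% interval -0.32 to 0.21, adjusted p = 0.826) in WT and 0.07 (95% interval -0.20 to 0.33, adjusted p = 0.74) in KO cells. KO minus WT was -0.20 (95% interval -0.47 to 0.06, adjusted p = 0.465) at day 0, where the arrays did not overlap, and -0.08 (95% interval -0.35 to 0.18, adjusted p = 0.684) at day 4. The second Axin2 probe set passed in no comparison either.

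Lef1, a nuclear partner of beta-catenin, had levels of 5.46, 5.50 and 5.74 in WT cells at day 0 and 5.80, 5.46 and 5.40 at day 4. In KO cells it had 6.01, 6.04 and 5.79 at day 0 and 6.42, 6.37 and 6.50 at day 4, the highest of all arrays. Lef1 rose in KO cells by 0.49 ± 0.12 (adjusted p = 0.00624), and at day 4 KO exceeded WT 1.84-fold (0.88 ± 0.12, adjusted p = 0.000352). The WT change was -0.01 (95% interval -0.27 to 0.24, adjusted p = 0.955). At day 0 the genotypes did not overlap, but the difference of 0.38 ± 0.12 did not pass (adjusted p = 0.0886), and neither did the difference of changes, 0.50 ± 0.16 (adjusted p = 0.112). In a fit of the day 0 groups alone the day 0 difference passed (adjusted p = 0.0439), and without WT day 4 array 1 both passed (0.38, adjusted p = 0.0253, and 0.63, adjusted p = 0.0174).

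Lef1 and Dkk2 both lie on chromosome 3, and both were higher in KO cells at day 4. Sfrp2 lies on the same chromosome and was lower in KO cells on both days (-1.22 and -0.34). Genes that RefSeq places between Lef1 and Dkk2 were looked up after these values had been seen. Of the 4 looked up, Sgms2, a sphingomyelin synthase gene, passed for KO minus WT at day 4 (0.54, adjusted p = 0.00588), where 20.7% of all genes passed. Cyp2u1 (0.31, adjusted p = 0.0551), Hadh (0.10, adjusted p = 0.488) and Papss1 (0.05, adjusted p = 0.819) did not. A part of chromosomal position was not tested.

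**Figure D2:**
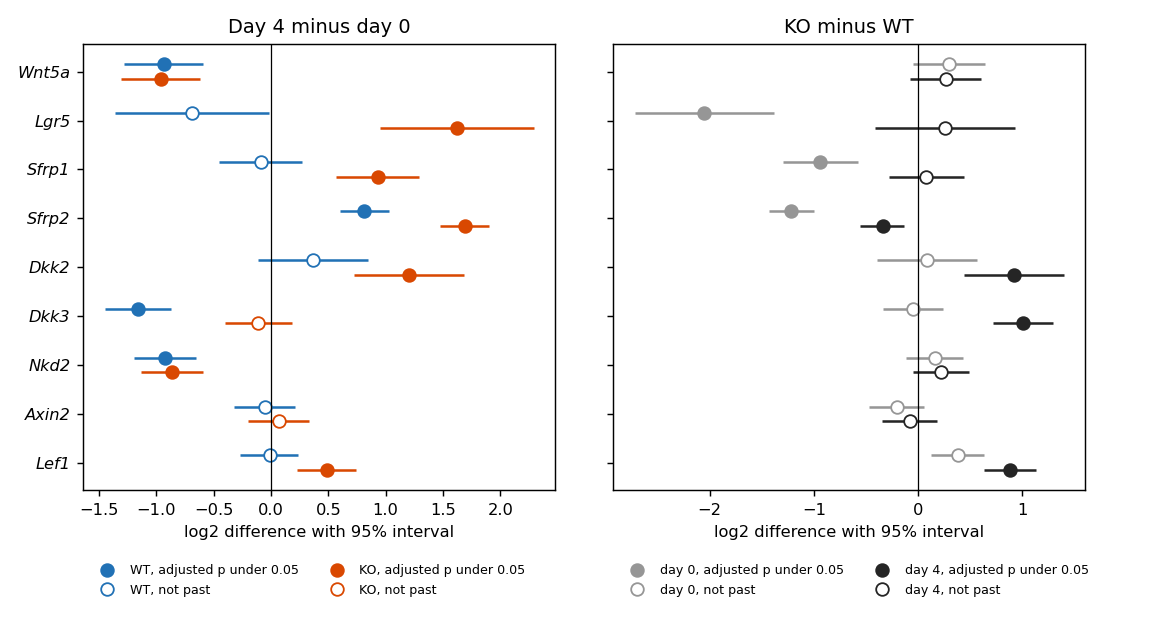
Log2 differences (horizontal axis) of the 9 genes with 95% intervals: day 4 minus day 0 in WT and KO cells, and KO minus WT at day 0 and day 4, filled where the adjusted p was under 0.05. The Lgr5 difference at day 0 is -2.05, and the Axin2 intervals all cross 0.

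Counted together at an adjusted p under 0.05, 1 of the 9 genes was higher and 3 were lower at day 4 in WT cells, where 22.9% of all genes were called (11.1% higher and 11.7% lower). The arrays did not overlap for 4 of them, against 36.3% of all genes, and the median change was -0.09 (-0.01 over all genes). In KO cells 5 were higher and 2 lower, where 30.8% of all genes were called (13.8% and 16.9%). There 7 did not overlap (45.3% of all genes), and the median was 0.49 (-0.01 over all genes). The WT and KO changes share no arrays.

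Between genotypes at day 0, 3 of the 9 genes were lower in KO cells and the other 6 did not pass, where 5.6% of all genes were called (2.48% higher and 3.12% lower). The arrays did not overlap for 8 of the 9, against 29.5% of all genes, with a median difference of -0.05 (0.00 over all genes). At day 4, 3 were higher and 1 lower, where 20.7% of all genes were called (8.34% and 12.4%). There 4 did not overlap (31.6% of all genes), with a median of 0.26 (0.00 over all genes). The difference of changes passed for 4, each more positive in KO cells, where 3.95% of all genes were called (2.15% and 1.81%), with a median of 0.83 (-0.01 over all genes). The genotype comparisons share arrays with the day 4 changes, and the genes were picked with results known, so the counts describe these genes only.

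Within groups, the SD of the 9 genes was larger at day 4 than at day 0 for 9 of 9 in WT and 7 of 9 in KO cells, against 64.6% and 65.7% of all genes. In KO cells Sfrp2 (0.08 to 0.07) and Lef1 (0.14 to 0.07) went the other way. WT day 4 array 2 was the highest of its group for 7 of the 9 (29.7% of all genes), and WT day 4 array 1 the lowest for 6 (40.7%). Among KO day 4 arrays, array 2 was the highest for 7 (36%).

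Wnt pathway genes were also counted by role, in lists of 123 names with 120 measured, the 9 genes included. At day 4, 21 were higher and 28 lower in WT cells (40.8% called), and 31 and 29 in KO cells (50%). KO against WT gave 4 higher and 13 lower at day 0 (14.2%), and 14 and 19 at day 4 (27.5%). The difference of changes passed for 8 that were more positive and 2 more negative in KO cells (8.33%). Of those 8, 4 are among the 9 genes. Over all genes the shares called were 22.9%, 30.8%, 5.6%, 20.7% and 3.95% in these comparisons, and the shares of each list below are to be read against them. Those shares include genes of low level. Without genes under the 25th percentile, 5317, 6869, 1334, 4767 and 1127 genes passed, more calls among fewer genes. The share called was thus higher among the genes left, and 51, 63, 17, 35 and 10 pathway genes passed there. Median differences of the whole set lay between -0.05 and 0.05 throughout.

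Of 19 Wnt ligands, 2 were higher and 6 lower (42.1% called) at day 4 in WT cells and 3 were higher and 7 lower (52.6% called) in KO cells. Wnt16 lay between 5.83 and 5.99 at day 0 and between 6.85 and 6.88 at day 4 in WT cells, and between 5.44 and 5.89 at day 0 and between 7.28 and 7.67 at day 4 in KO cells. It rose in both, by 0.95 (adjusted p = 9.4e-05) and 1.87 (adjusted p = 4.73e-07), and more in KO cells (difference 0.92, adjusted p = 0.0123). Wnt2 rose in WT (1.5, adjusted p = 6.29e-05) and KO cells (0.91, adjusted p = 0.00184), with a difference of changes that did not pass (-0.58, adjusted p = 0.235). Wnt2b fell in WT (-0.85, adjusted p = 0.000198) and KO cells (-0.66, adjusted p = 0.000968). Wnt10b was higher in KO than in WT cells at day 0 (0.65, adjusted p = 0.00111). Its levels were low, 3.98 to 4.09 in WT and 4.64 to 4.79 in KO cells, under the median gene (5.28). Porcn, the enzyme that attaches the lipid to Wnt proteins, was lower in KO cells at day 0 (-0.51, adjusted p = 0.00551) and rose in them by day 4 (0.64, adjusted p = 0.000181).

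Of 16 receptors and co-receptors, 1 was higher and 5 lower (37.5% called) in KO than in WT cells at day 0. Ror1, a receptor of Wnt5a, had levels of 7.49, 7.37 and 7.43 in WT and 6.05, 5.88 and 6.0 in KO cells at day 0, a difference of -1.45 (adjusted p = 0.00126). The Frizzled genes Fzd4 (-0.85, adjusted p = 0.000498), Fzd5 (-0.83, adjusted p = 0.00153) and Fzd6 (-0.73, adjusted p = 0.00814) were lower as well. By day 4 the receptor gene Ryk fell in WT (-0.62, adjusted p = 2.79e-05) and KO cells (-0.48, adjusted p = 0.000159). Among 9 genes of the R-spondin group, Lgr4, another R-spondin receptor, rose in both genotypes (0.75, adjusted p = 0.000136, and 1.11, adjusted p = 6.42e-06). It lay between 8.80 and 9.03 at day 0 and between 9.60 and 9.73 at day 4 in WT cells, and between 8.63 and 8.69 at day 0 and between 9.53 and 9.89 at day 4 in KO cells. At day 0 Lgr4 differed between genotypes by -0.27 (95% interval -0.49 to -0.05, adjusted p = 0.175), beside -2.05 for Lgr5.

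**Figure D3:**
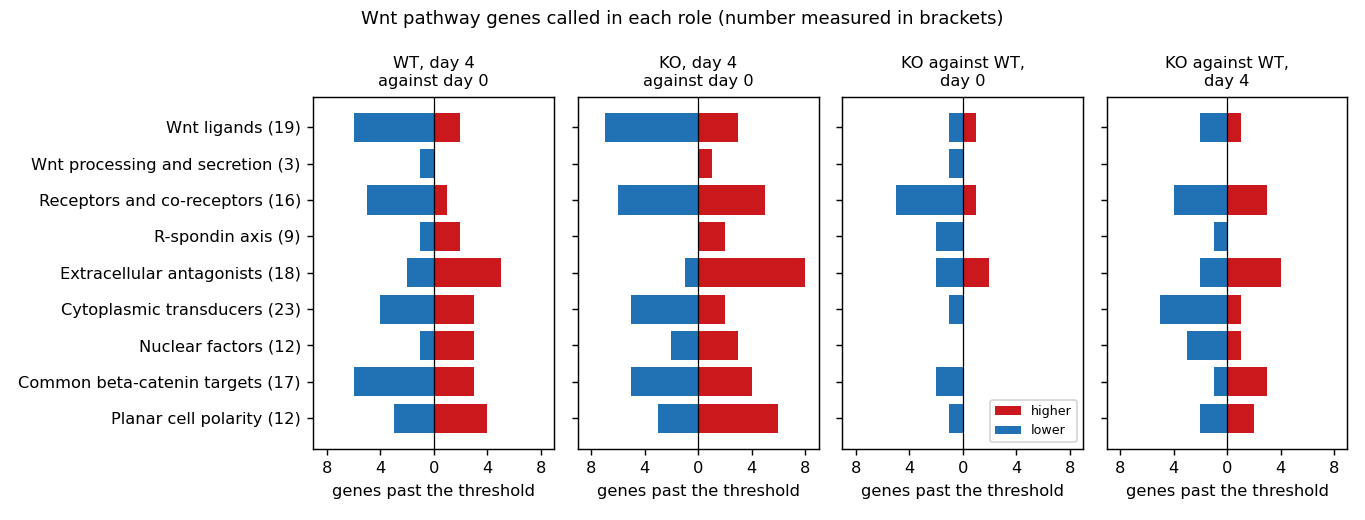
Number of genes past an adjusted p of 0.05 (horizontal axis, lower to the left and higher to the right) in the role lists of the Wnt pathway (vertical axis). Extracellular antagonists have 8 higher and 1 lower in KO cells at day 4, and receptors have 1 higher and 5 lower in KO against WT cells at day 0.

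Of 18 extracellular antagonists, 5 were higher and 2 lower (38.9% called) at day 4 in WT cells and 8 were higher and 1 lower (50% called) in KO cells. Sostdc1, a secreted antagonist, lay between 4.92 and 5.84 at day 0 and between 9.41 and 10.18 at day 4 in WT cells, and between 5.13 and 5.51 at day 0 and between 9.91 and 10.21 at day 4 in KO cells (changes of 4.38, adjusted p = 8.74e-08, and 4.75, adjusted p = 4.53e-08). Sfrp4, of the same family as Sfrp1, rose by 2.42 (adjusted p = 2.13e-05) and 2.33 (adjusted p = 2.29e-05) from day 0 levels of 3.65 to 3.91 in WT and 3.61 to 3.91 in KO cells, around the 25th percentile of mean levels (3.75). Apcdd1, a membrane inhibitor, rose by 1.45 (adjusted p = 9.8e-05) and 1.47 (adjusted p = 6.64e-05). Frzb, also a frizzled-related gene, fell in WT (-1.13, adjusted p = 4.6e-05) and KO cells (-0.93, adjusted p = 0.000154) and was higher in KO than in WT cells at day 4 (0.74, adjusted p = 0.00195). Its WT day 4 levels, 3.77 to 3.83, also lay close to that percentile. Frizzled-related genes thus moved in both directions.

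Of 23 cytoplasmic transducers, 3 were higher and 4 lower (30.4% called) at day 4 in WT cells and 2 were higher and 5 lower (30.4% called) in KO cells. Nkd1, the paralogue of Nkd2, was lower in KO than in WT cells at day 0 (-0.78, adjusted p = 0.000486), while the Nkd2 difference did not pass (0.16, adjusted p = 0.598). Of 12 nuclear factors, 3 were higher and 1 lower (33.3% called) in WT and 3 were higher and 2 lower (41.7% called) in KO cells. The corepressor gene Tle4 rose in WT (1.16, adjusted p = 4.6e-05) and KO cells (0.53, adjusted p = 0.00905), and Pygo2, a beta-catenin coactivator, fell in both (-0.53, adjusted p = 0.00362, and -0.55, adjusted p = 0.00209).

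Genes commonly read as beta-catenin targets went both ways. Myc, named above as a transduced factor, is among them and fell. Of 17 measured, Lgr5, Lef1 and Axin2 among them, 3 were higher and 6 lower (52.9% called) at day 4 in WT cells and 4 were higher and 5 lower (52.9% called) in KO cells. Ccnd1, a cyclin gene, rose (0.82, adjusted p = 7.5e-06 in WT, and 0.87, adjusted p = 3.99e-06 in KO cells). Ccn4, a matrix protein gene, lay between 10.17 and 10.19 at day 0 and between 7.65 and 8.61 at day 4 in WT cells, and between 9.86 and 10.00 at day 0 and between 7.62 and 8.56 at day 4 in KO cells (changes of -2.11, adjusted p = 3.4e-05, and -1.90, adjusted p = 5.67e-05). Of 12 planar polarity genes, 4 were higher and 3 lower (58.3% called) in WT and 6 were higher and 3 lower (75% called) in KO cells. Daam2, a formin that works with Dishevelled, fell in WT cells (-0.65, adjusted p = 0.000889) and rose in KO cells (0.77, adjusted p = 0.000181). It lay between 5.95 and 6.08 at day 0 and between 5.24 and 5.60 at day 4 in WT cells, and between 5.36 and 5.67 at day 0 and between 6.14 and 6.35 at day 4 in KO cells. These changes differed by 1.42 (adjusted p = 0.000777).

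**Figure D4:**
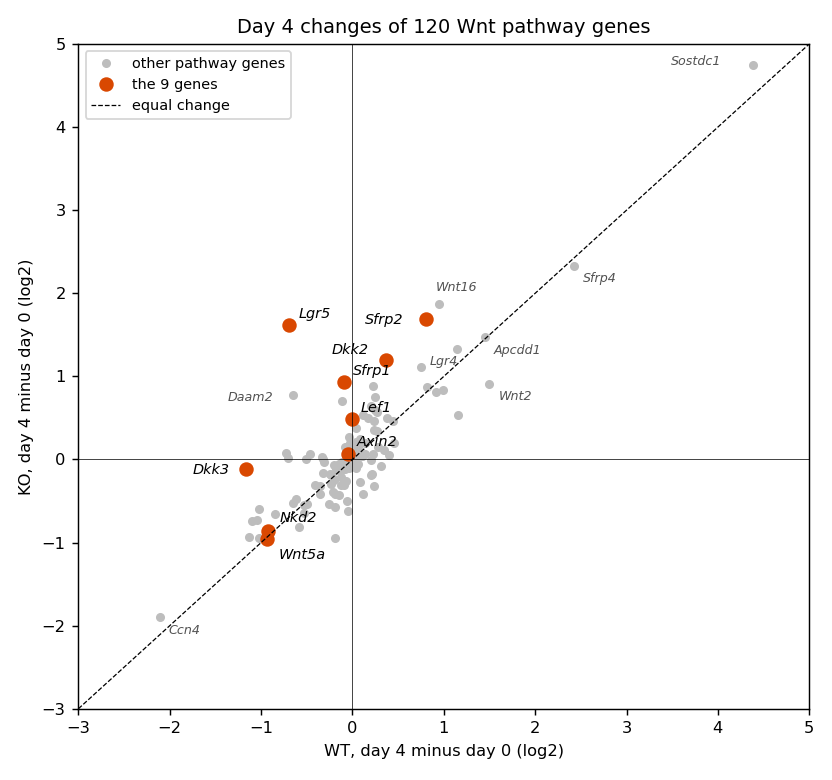
Day 4 minus day 0 (log2) in WT cells (horizontal axis) and KO cells (vertical axis) for the measured Wnt pathway genes. Lgr5 (-0.69 and 1.62), Dkk3 (-1.16 and -0.11) and Daam2 (-0.65 and 0.77) lie above the line of equal change, and Wnt5a and Nkd2 lie close to it.

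The genes whose profile was most like that of Lgr5 were found by the root mean square difference of the 12 log2 levels, each gene centred on its own mean, over 17262 genes. They were Clec11a (0.40), Cpxm2 (0.41), Podn (0.43), Ror1 (0.44) and Tmem178 (0.44). All 5 had their lowest group mean in KO day 0 cells, as Lgr5 did. Their choice by likeness to Lgr5 brings this about, so it is no separate result. Clec11a was at 6.66 ± 0.12 in WT and 5.11 ± 0.11 in KO cells at day 0 (SD, n = 3). At day 4 it was at 6.47 ± 0.36 and 6.02 ± 0.14. Cpxm2 was at 6.29 ± 0.11 and 4.95 ± 0.10 at day 0, and at 6.32 ± 0.23 and 6.29 ± 0.16 at day 4. Sfrp1 had rank 7 by this measure (0.45) and Sfrp2 rank 132 (0.67). Axin2 had rank 966 (0.78) and Dkk2 rank 3257 (0.83). The group means of Axin2 lay between 5.45 and 5.66, so its rank does not mean that it moved as Lgr5 did. Dkk3 (rank 15169), Lef1 (15752), Nkd2 (16368) and Wnt5a (16592) were far less like Lgr5. The likeness is a description over 12 arrays in 4 groups.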

How the data were processed

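RNA was labelled with biotin by a whole-transcript protocol and read on 1-colour Affymetrix arrays. The authors deposited log2 levels of 41345 probe sets (1.33 to 13.35); the log base was read from these values. Affymetrix Expression Console was used, per the submitters' processing notes. How it corrected, normalized and summarised the probes is not stated in the sources used here. Through GEO's platform annotation 23521 probe sets had 1 symbol, 1814 several and 16010 none; the last 2 kinds were left out. The number of arrays limits the precision.

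All 22180 genes were fitted with limma 3.58.1 in R 4.3.3, with 4 group means over 12 arrays and no filter (8 residual and 4.56 prior degrees of freedom). Tests were two-sided, p-values were Benjamini-Hochberg adjusted over all genes, and the threshold was 0.05. The code was tested on simulated data. Alternatives were a filter on low levels, quantile normalization, centring, averaged probe sets, another prior, array weights, the compared groups alone, a replicate block, a 2-fold minimum and leaving out each array. Promoter motifs were searched in the bases before the start only. Members and lists were chosen with earlier results of these data known. From each list the text could name up to 4 genes past the threshold with the smallest p, or all where 5 or fewer passed, and the 5 genes most like Lgr5.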

Additional observations from a re-analysis of the deposited data

Results flagged for a closer look

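For 10 of the 120 measured Wnt pathway genes (8.33%, against 3.95% of all genes) the day 4 change differed between KO and WT cells by the interaction term of the limma fit. The 120 include the 9 genes picked with earlier results known, which hold 4 of these 10 calls. The share is therefore no measure of the pathway apart from that choice. The 3.95% also counts genes of low level. Without genes under the 25th percentile, 1127 genes and 10 pathway genes passed, in place of 877 and 10. KO minus WT was 2.31 for Lgr5, 1.05 for Dkk3, 1.02 for Sfrp1 and 0.88 for Sfrp2. Among other pathway genes it was 1.42 for Daam2, 0.92 for Wnt16, 0.81 for Fzd5 (adjusted p = 0.0251), 0.43 for the adhesion receptor gene Cd44 (adjusted p = 0.0402), -0.44 for the polarity gene Scrib (adjusted p = 0.0308) and -0.57 for Wnt10b (adjusted p = 0.0335). On omission of each of the 12 arrays in turn, the calls of Daam2, Dkk3, Lgr5, Sfrp2 and Wnt16 held. Those of Sfrp1 and Wnt10b were lost in 9 and 9 omissions, that of Fzd5 in 8, that of Scrib in 10 and that of Cd44 in 11. The second probe sets of Lgr5 (1.42, adjusted p = 0.0609) and Sfrp2 (-0.11, adjusted p = 0.846) did not pass for this difference.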

How the results depend on the processing

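Of 928 values of the 9 genes under the alternatives, 34 lost a call and 8 gained one. Of the 34, 12 fell under the 2-fold minimum, a rule on size that leaves the adjusted p unchanged. A called value changed sign in 1, which also did not pass and is counted apart from the 34. Values that did not pass in the main fit changed sign in 29, so no direction is read from those. The low-level filter, quantile normalization, centring and the trended, robust prior changed no call of these genes. Nor did the replicate number as a block, which gave 4931, 6647, 1181, 4417 and 801 called genes for WT day 4, KO day 4, the genotypes at day 0 and at day 4, and the difference of changes. Same-numbered arrays share only a number (correlations of deviations -0.06 to 0.182). Averaged probe sets ended 2 Sfrp2 calls: KO minus WT at day 4 (-0.26, adjusted p = 0.123) and the difference of changes (0.38, adjusted p = 0.216). The second Sfrp2 probe set, tried after seeing the data, turned the sign of the latter (-0.11, adjusted p = 0.846). Array weights added Dkk2 in WT cells (0.58, adjusted p = 0.0177), Lef1 at day 0 (0.39, adjusted p = 0.0147) and the Lef1 difference of changes (0.58, adjusted p = 0.0379); the cause was not tested.

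A 2-fold minimum, which is a stricter rule by construction, left 779 genes, 1 of the 9 and 13 pathway genes for WT day 4, 834, 3 and 10 for KO day 4, and 330, 1 and 1 for the genotypes at day 4. For the genotypes at day 0 it left 273 genes and 3 pathway genes, and for the difference of changes 179 and 4. Array weights gave 2562 and 26 at day 0, and 1852 and 18 for the difference of changes. Fits of the compared groups alone gave 2453 and 26 at day 0, and 1923, 11 and 2 of the 9 at day 4. Leaving out 1 array gave 3977 to 5165 genes for WT day 4 and 5539 to 7646 for KO day 4. At day 0 it gave 769 to 1936 genes (769 to 826 without any 1 day 0 array, most without WT day 4 array 1) and 10 to 20 pathway genes. At day 4 it gave 2946 to 5929 genes (fewest without WT day 4 array 3) and 20 to 42 pathway genes (21 and 20 without WT day 4 arrays 2 and 3). For the difference of changes it gave 395 to 2140 genes and 5 to 24 pathway genes, most without WT day 4 array 1, and at most 576 genes without any other array but WT day 4 array 2 and KO day 4 array 2. Of the 9 genes, 4 to 5, 7, 3 to 4, 3 to 4 and 3 to 5 passed in the 5 comparisons, in the order above.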
